A study of Cavia porcellus with 35 samples.

Results

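The third generation (F3) of a guinea pig lineage was examined by RNA-seq of the prefrontal cortex (PFC), in 8 of the 35 samples of the series. These were the animals labelled F3 female, 4 labelled Beta and 4 labelled Control, and every gene of their table was used: 11651 genes were listed and 11420 passed a filter on low counts. The 4 Beta animals, called sGC here, descended from great-grandmothers given the synthetic glucocorticoid betamethasone in late pregnancy, and the 4 controls from others given saline. In both groups the line ran through the males, which were mated with females outside the experiment, so no F3 animal or its mother received the drug. All 8 were juvenile females at postnatal day 40, and the tissue was punched from the medial PFC of the right hemisphere. One female per litter was used according to the study's methods, and animals were chosen for the amount and quality of their RNA. The comparison asks whether PFC transcription still differed in great-grandchildren of treated females.

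Fast-spiking basket cells are inhibitory interneurons that contain the calcium buffer parvalbumin and fire at high rates, using Kv3 potassium channels, resurgent sodium current and tightly coupled transmitter release. Neurofilaments are the intermediate filaments of large axons, and their light, medium and heavy chains set axon calibre. Perineuronal nets are sheaths of chondroitin sulphate proteoglycan, hyaluronan, link protein and tenascin-R that enwrap mainly parvalbumin cells as the cortex matures. These genes were taken as 4 lists, of 13 fast-spiking identity genes, 19 genes of fast firing and release, 5 neurofilament genes and 21 net genes, with 32 enzymes and inhibitors of the chondroitin matrix beside them. All lists used here were chosen with earlier results of these data known. List counts set beside the share of all genes are therefore description, not independent evidence.

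Libraries held 14135131 to 19551079 counts, and totals did not separate the groups (exact two-sided permutation test, p = 0.686, smallest p possible 0.0286). Levels below are TMM-scaled CPM, a gene's counts relative to the size of its library, listed from animal 1 to animal 4. A pair of features of the controls bears on all results. Control 1 lay with the sGC animals on the first principal component, at -4.31 against 7.14 to 24.9 for the other controls and -16.2 to -4.73 for the sGC animals. Controls 2 and 4 were closer to each other than any other pair of the same group: the chi-square per gene between their counts was 2.84, above sampling noise, while the other 11 within-group pairs of F3 lay between 8.20 and 33.5 and no such pair of F1 or F2 was under 5.23. They were kept as 2 samples, and results were also computed with the pair summed into 1. The extraction note in the labels names the paraventricular nucleus of the hypothalamus, whereas the source name is prefrontal cortex. SLC17A7, the vesicular glutamate transporter of cortical projection neurons, was at 812, 501, 777 and 467 CPM in the controls and 1053, 1047, 1169 and 933 in the sGC animals. The paraventricular peptide genes AVP, at 0.351 to 1.32 CPM, and OXT, at 1.64 to 3.22 CPM, were low in all 8 animals.

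Of the 11420 genes, 153 (1.34%) passed an adjusted p (Benjamini-Hochberg, edgeR quasi-likelihood test) of 0.05. There were 122 higher in the sGC animals (1.07%) and 31 lower (0.271%), and in all 153 the 4 sGC animals lay outside the range of the 4 controls. Complete separation of the groups was seen in 1177 genes (10.3%), higher in sGC in 680 (5.95%) and lower in 497 (4.35%). An unadjusted p under 0.05 was seen in 1973 genes (17.3%), the likelihood ratio test called 616 (5.39%), DESeq2 called 632 (5.53%), and a fit that took the spread from the F1, F2 and F3 females together called 151 of 11043 (1.37%). Of these 151 genes, only 65 were among the 153. The number of calls rested on single animals: 598 without control 1, 21 without control 2, 20 without control 4, 76, 27, 28 and 43 without sGC animals 1 to 4, and 22 (21 higher and 1 lower) with controls 2 and 4 summed. The p-values describe the spread among these 8 animals.

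PVALB, which encodes parvalbumin, was raised. It was the 1 called gene among the 10 identity genes tested, where 1.07% of all genes were called higher. Its level was 17.3, 20.5, 18.0 and 21.9 CPM in the controls and 33.9, 37.0, 32.3 and 43.7 CPM in the sGC animals. The lowest sGC animal lay above the highest control, and the rise (log2 fold change 0.92 ± 0.11 (SE), adjusted p = 0.00918) passed without any 1 of the 8 animals and with controls 2 and 4 summed (adjusted p = 0.0330). Estimating the spread from the F1, F2 and F3 females together ended the call (adjusted p = 0.196). The other 9 members did not pass. LHX6, a transcription factor that specifies interneurons from the medial ganglionic eminence, had a log2 fold change of 0.31, adjusted p = 0.204. SOX6 and SATB1, which act after it in the same lineage, stood at -0.11 and 0.21. TAC1, the tachykinin precursor found in part of the parvalbumin cells and also in the striatum, was at -0.86, adjusted p = 0.140, and was called lower by the likelihood ratio test (adjusted p = 0.0304). The median over the list was 0.05, against -0.01 over all genes tested. In bulk tissue, a change in the number of cells of a type and a change in RNA per cell cannot be told apart. ERBB4, MYBPC1 and COX6A2 were not analysed here.

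Of 17 tested genes of fast firing and release 7 were called, all higher, where 1.07% of all genes were, and 8 separated the groups upward, where 5.95% of all genes did. VAMP1, the synaptobrevin of fast-spiking terminals, was at 33.3, 27.6, 35.5 and 29.5 CPM in the controls and 52.8, 75.4, 54.7 and 76.1 in the sGC animals. The sGC animals 2 and 4 were the highest, and no sGC animal reached down to the controls (log2 fold change 1.04 ± 0.14 (SE), adjusted p = 0.0165). CPLX1, complexin 1, a clamp and activator of vesicle fusion, was at 225, 176, 207 and 198 CPM in the controls and 305, 351, 267 and 352 in the sGC animals, again without overlap (log2 fold change 0.66 ± 0.10 (SE), adjusted p = 0.0220). KCNC2, the Kv3.2 channel, stood at 121, 108, 130.3 and 97.5 CPM in the controls and 175, 168, 181 and 151 in the sGC animals. Control 3 was the highest control for KCNC2 and sGC animal 4 the lowest of its group, and the groups did not overlap (log2 fold change 0.56 ± 0.09 (SE), adjusted p = 0.0256). KCNAB2, a potassium channel beta subunit, rose by 0.27 on the log2 scale (adjusted p = 0.0429). SCN8A, the Nav1.6 channel of the axon initial segment, separated the groups at 0.51, adjusted p = 0.0562. The Kv3.1 gene KCNC1 did not pass (0.25, adjusted p = 0.238), nor did KCNA1 and KCNA2, the Kv1 channels of axons, at 0.34 and 0.05. SYT2, the calcium sensor of fast release, and SCN4B, the resurgent-current subunit, varied widely within both groups, SYT2 from 18.4, 36.1, 50.8 and 33.2 CPM in controls to 23.5, 38.4, 17.9 and 47.7 in sGC animals. With controls 2 and 4 summed only VAMP1 passed (adjusted p = 0.0491), and without control 4 none of the 17 did. The likelihood ratio test and DESeq2 called 8 each. KCNA6 and SCN1A were not analysed here.

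Neurofilament genes were higher in the sGC animals for 4 of the 5, of which 2 were called, where 1.07% of all genes were called higher. NEFH, the heavy chain, was at 76.6, 61.5, 70.2 and 62.4 CPM in the controls and 128, 129, 128 and 126 CPM in the sGC animals. The 4 sGC animals were nearly level with each other, and the highest control lay far below them (log2 fold change 0.92 ± 0.07 (SE), adjusted p = 0.00123). NEFL, the light chain, was at 518, 452, 505 and 463 CPM against 682, 696, 666 and 707, again without overlap (log2 fold change 0.51 ± 0.06 (SE), adjusted p = 0.00897). Both passed without any 1 animal and with controls 2 and 4 summed (adjusted p = 0.00427 and 0.0330), and neither passed in the fit over the 3 female generations (adjusted p = 0.150 and 0.113). NEFM, the medium chain, ran at 132, 139, 183 and 144 CPM in the controls and 216, 288, 183 and 318 in the sGC animals. The groups separated only narrowly, sGC animal 3 lying above control 3 by less than 1 CPM. NEFM was not called (0.75, adjusted p = 0.0677). INA, alpha-internexin, also separated the groups without passing (0.26, adjusted p = 0.0563). PRPH, peripherin, the type of peripheral and brainstem neurons, did not pass (-0.18, adjusted p = 0.802). The likelihood ratio test and DESeq2 called 4 of the 5 each.

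In the perineuronal net list 2 of 19 tested genes were called, both higher, where 1.07% of all genes were. HAPLN4, the link protein Bral2 that ties proteoglycan to hyaluronan, was at 16.2, 14.0, 13.4 and 15.3 CPM in the controls and 35.5, 40.1, 32.5 and 36.9 CPM in the sGC animals, the lowest adjusted p of all 11420 genes (log2 fold change 1.30 ± 0.09 (SE), adjusted p = 0.000652). Every sGC animal was above every control by a margin wider than either group's range. The call held without any 1 animal and with controls 2 and 4 summed (adjusted p = 0.00335), but not in the fit over 3 generations (adjusted p = 0.154). Nptx2, neuronal pentraxin 2, which gathers AMPA receptors on parvalbumin cells, was at 58.1, 39.4, 56.7 and 35.5 CPM in the controls and 93.7, 113, 109 and 84.3 in the sGC animals (log2 fold change 1.08 ± 0.17 (SE), adjusted p = 0.0216). Controls 2 and 4 were the lowest for Nptx2, and with the pair summed the adjusted p was 0.0602. NPTX1, its homologue, showed the same 2 controls low, at 608, 285, 504 and 293 CPM, against 794, 797, 793 and 698 in the sGC animals, and did not pass (0.87, adjusted p = 0.0931). Apart from HAPLN4, the structural components named here did not pass. TNR, tenascin-R, had a log2 fold change of 0.23, with every sGC animal above every control. ACAN, the aggrecan core protein, stood at 0.17, BCAN, brevican, at -0.11, VCAN, versican, at 0.16, and HAPLN1, the link protein that builds the net, at -0.14. Among the hyaluronan synthases HAS3 was lower in each sGC animal (-0.67, adjusted p = 0.185) and HAS1 was at 0.24. In all, 5 members separated the groups upward and 1 downward, against 5.95% and 4.35% of all genes, and the median was 0.17. The likelihood ratio test and DESeq2 called 3 each. NCAN and PTPRZ1 were not analysed here.

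Enzymes and inhibitors of the chondroitin matrix showed 1 call among 29 tested, where 1.34% of all genes were called. ADAMTS8, a metalloprotease of the aggrecanase family, was at 6.56, 7.32, 6.48 and 6.36 CPM in the controls and 12.2, 10.2, 14.2 and 9.73 CPM in the sGC animals (log2 fold change 0.79 ± 0.13 (SE), adjusted p = 0.0276). Its lowest sGC value exceeded the highest control, and the call was lost with controls 2 and 4 summed (adjusted p = 0.0818). TIMP3, a matrix-bound protease inhibitor, CHPF2 and CHSY3, which polymerise chondroitin, and MMP14, a membrane metalloprotease, were lower in all 4 sGC animals without passing (log2 fold changes -0.26, -0.26, -0.37 and -0.22), where 4.35% of all genes separated downward. The list median was -0.05.

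**Figure D1:**
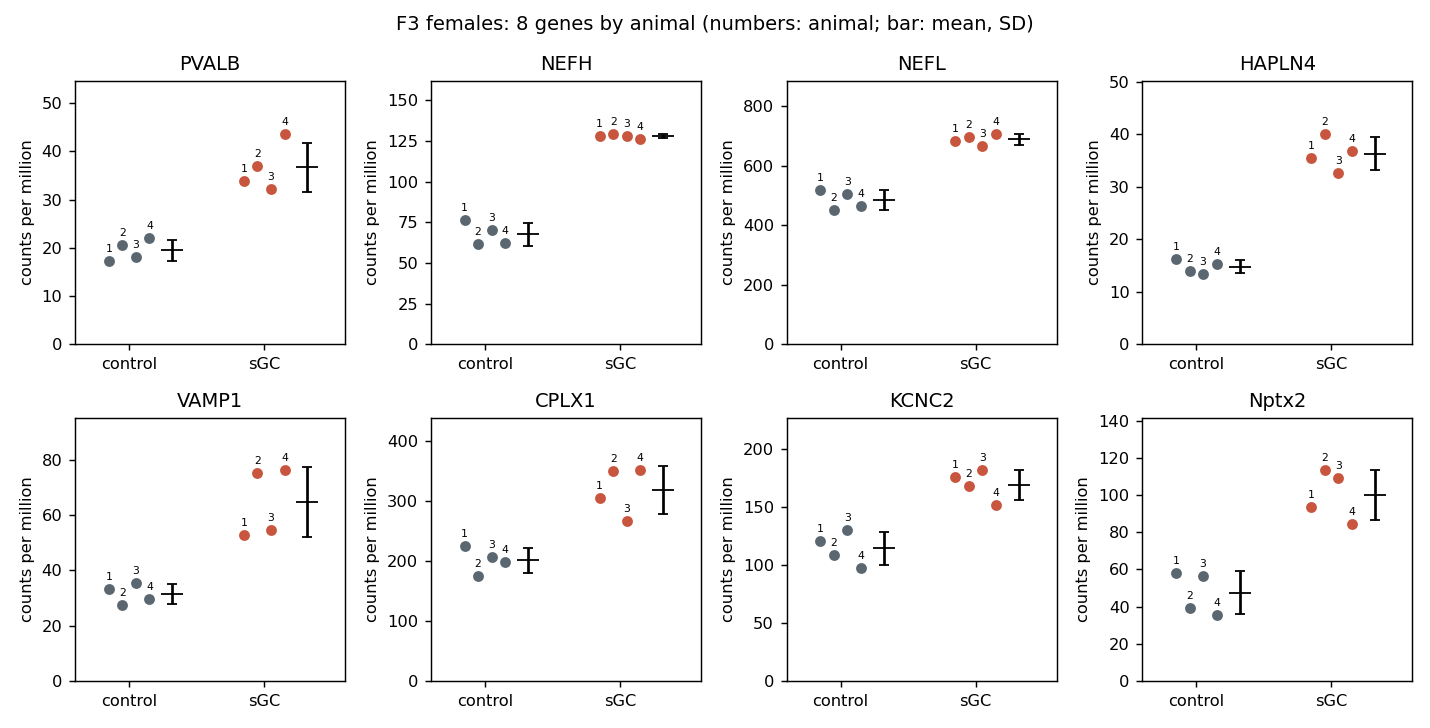
CPM in each of the 4 control and 4 sGC F3 females for 8 genes named above, with animal numbers; the bar gives the mean and SD. All 4 sGC points lie above all 4 control points in every panel, and NEFH has the tightest sGC group.

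**Figure D2:**
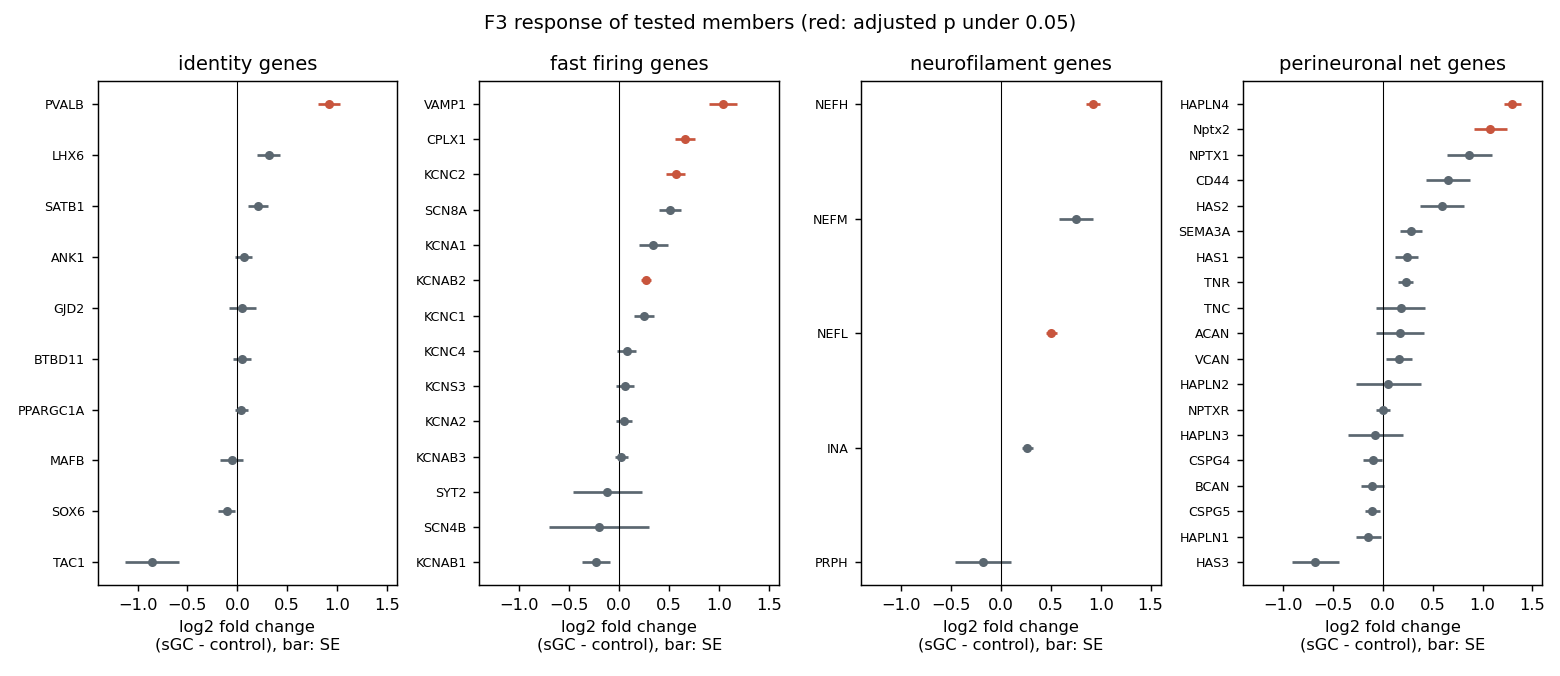
Log2 fold change (sGC minus control) with its standard error for members of the 4 lists, red where the adjusted p is under 0.05. The called genes lie to the right of 0, and most identity and net genes lie near 0.

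Genes of vesicle release were higher more often than lower. Of 30 tested, 5 were called, all higher, where 1.07% of all genes were, 14 separated the groups upward, where 5.95% did, and none downward, and the median was 0.32. UNC13A, the priming factor Munc13-1, was at 544, 500.0, 577 and 496 CPM in the controls and 693, 734, 673 and 718 in the sGC animals (log2 fold change 0.41 ± 0.06 (SE), adjusted p = 0.0208). RIMS1, an active zone scaffold, stood at 0.39, adjusted p = 0.0224, and STX1A, the syntaxin of the fusion complex, at 0.56, adjusted p = 0.0251. SNAP25, its partner on the plasma membrane, stood at 0.60, adjusted p = 0.0437, and SYP, synaptophysin, at 0.38, adjusted p = 0.0429. None of the 5 passed with controls 2 and 4 summed (lowest adjusted p = 0.0806), and the fit over the 3 female generations called 10 of the list, all higher. Among 32 further potassium channel genes KCNIP3, a Kv4 interacting protein, was called (0.33, adjusted p = 0.0410) and 10 separated the groups upward. Among 19 sodium and calcium channel genes CACNA1G, the T-type channel Cav3.1, rose (0.59, adjusted p = 0.0351) and CACNA1C, the L-type channel Cav1.2, fell (-0.53, adjusted p = 0.0251). CACNA1C stood at 63.8, 81.1, 80.4 and 78.6 CPM in the controls, control 1 being the lowest, and at 51.9, 55.6, 47.6 and 55.2 in the sGC animals. With controls 2 and 4 summed, KCNIP3, CACNA1G and CACNA1C did not pass (adjusted p = 0.134, 0.0996 and 0.0818). Of 11 genes of the axon initial segment and node, none was called by edgeR. In 4 the unadjusted p was under 0.05, against 17.3% of all genes. The likelihood ratio test and DESeq2 called 1 each, against 5.39% and 5.53% of all genes.

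Genes of GABA synthesis and transport, shared by all inhibitory neurons, had log2 fold changes under 0 in all 7 tested, while PVALB was raised. GAD2, the synaptic GABA-synthesising enzyme, was at 156, 203, 219 and 190.4 CPM in the controls and 134, 125, 131 and 156 in the sGC animals. SLC32A1, the vesicular GABA transporter, was at 76.9, 121, 129 and 118 CPM against 68.1, 66.7, 42.6 and 68.3. Neither was called (log2 fold changes -0.49, adjusted p = 0.0565 and -0.85, adjusted p = 0.0574), though both separated the groups, GAD2 only narrowly (156.1 CPM in control 1 against 155.9 in sGC animal 4). In the edgeR test on the F3 animals none of the 7 passed, 6 had an unadjusted p under 0.05 (17.3% of all genes), and the likelihood ratio test and DESeq2 called 4 each. In the fit over the 3 female generations GAD2 and SLC32A1 passed (adjusted p = 0.0161 and 0.0311), and neither did with controls 2 and 4 summed (adjusted p = 0.150 and 0.152). Among 18 markers of other interneurons, 12 had a log2 fold change under 0 and 6 above. CNR1, a cannabinoid receptor, was the 1 call among them (-0.56, adjusted p = 0.0367), where 0.271% of all genes were called lower. DLX5, a transcription factor of the ventral forebrain, was at -1.10, adjusted p = 0.0636. The CNR1 call was lost with controls 2 and 4 summed (adjusted p = 0.107) and in the fit over the 3 female generations (adjusted p = 0.0652). Of 15 GABA receptor genes none was called in the edgeR test on the F3 animals, 5 had an unadjusted p under 0.05, and the likelihood ratio test and DESeq2 called 2 each. GABRA3, an alpha subunit of the GABA-A receptor, had a log2 fold change of 0.51, adjusted p = 0.0526, and each sGC animal was above all controls. It passed in the fit over the 3 female generations (adjusted p = 0.0161) and with the replicate block, in which animals of the same number share a term (adjusted p = 0.0389), but not with controls 2 and 4 summed (adjusted p = 0.150).

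Marker sums were set beside these results. The cortical identity and deep-layer sums were higher in every sGC animal, and the striatal and myelin sums overlapped between the groups. The 6 cortical identity genes summed to 1063, 678, 1010.2 and 641 CPM in the controls and 1367, 1346, 1500.1 and 1209.7 in the sGC animals. Of these, 4 separated the groups upward, where 5.95% of all genes did. None of the 6 was called in the edgeR test on the F3 animals, and the likelihood ratio test and DESeq2 called 5 each. The 19 deep-layer genes summed to 2946, 1950.0, 3003 and 1955 CPM in the controls and 3334, 3309.5, 3281 and 3374 in the sGC animals. None of the 19 was called in the edgeR test, and the other tools called 4 each. Controls 2 and 4 were low in both sums. The 13 striatal genes summed to 479, 850.3, 1329.8 and 678 CPM in the controls, with control 3 the highest, and 386, 636, 314 and 586 in the sGC animals, and their median log2 fold change was -0.78. Of these 13 genes, 12 had a log2 fold change under 0, and 9 had an unadjusted p under 0.05, against 17.3% of all genes. There was 1 call in edgeR, lower, where 0.271% of all genes were, and the likelihood ratio test and DESeq2 called 3 and 2. The striatal receptor genes DRD1, DRD2 and ADORA2A were above 0 in all 8 animals and overlapped between groups. The 18 myelin genes summed to 11894, 5387, 8622 and 6557 CPM in the controls and 9113, 11665, 8657 and 10840.4 in the sGC animals, with controls 2 and 4 again the lowest. The part of these sums in the changes of fast-spiking, neurofilament and net genes was not tested.

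**Figure D3:**
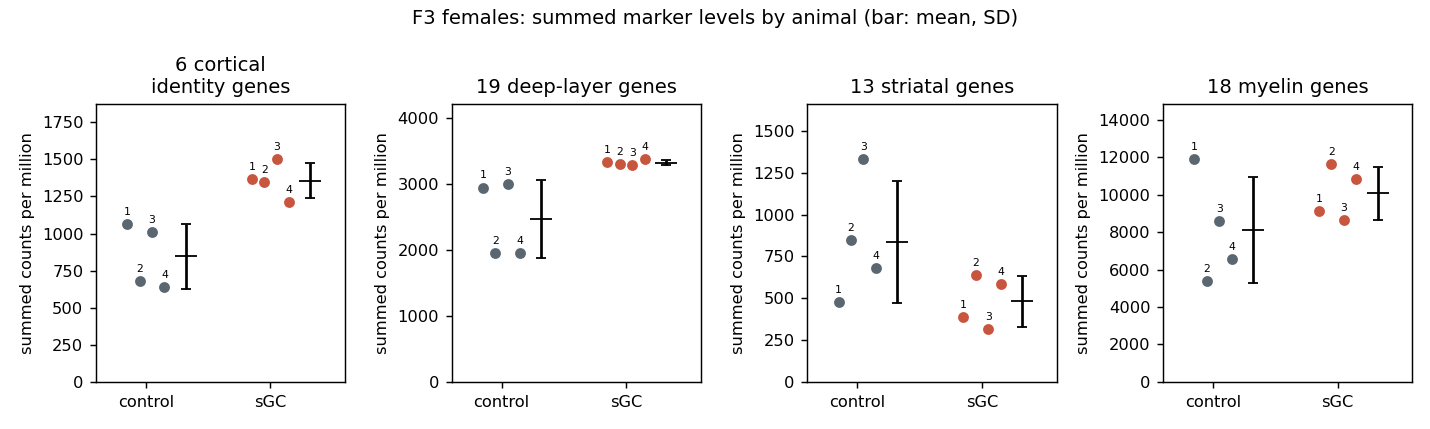
Summed CPM of 4 marker lists in each F3 female, with animal numbers; the bar gives the mean and SD. Controls 2 and 4 lie lowest for the cortical, deep-layer and myelin sums, and control 3 lies highest for the striatal sum.

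Glial, vascular and choroid markers gave no call: of 90 genes in 6 lists none passed in edgeR, 10 had an unadjusted p under 0.05, and the likelihood ratio test and DESeq2 called 3 and 1. Log2 fold changes were above 0 in all 18 myelin genes and in 11 of 13 oligodendrocyte precursor genes. They were under 0 in 14 of 15 vascular genes and 11 of 15 microglia genes. Astrocyte genes (8 above 0 and 9 under) and choroid genes (6 and 6) were split. Of 19 glucocorticoid signalling genes none was called by any of the 3 tools and none had an unadjusted p under 0.05. NR3C1, the glucocorticoid receptor, was at 90.1, 97.0, 109 and 91.2 CPM in the controls and 90.5, 92.6, 97.8 and 102 in the sGC animals, and NR3C2, the mineralocorticoid receptor, at 35.0, 34.4, 40.9 and 33.1 against 30.2, 32.2, 35.0 and 37.2. The groups overlapped for both receptors. Genes of oxidative phosphorylation (30 tested) and ribosomal proteins (26 tested) held no call by any of the 3 tools, with 3 and 6 at an unadjusted p under 0.05, against 17.3% of all genes. Of the ribosomal protein genes 25 had a log2 fold change under 0 (median -0.13). Of 23 chromatin genes none was called by edgeR, 3 had an unadjusted p under 0.05, and the other tools called 1 each. In glycolysis LDHA, lactate dehydrogenase A, was called among 14 genes (0.53, adjusted p = 0.0490), where 1.34% of all genes were called. All 14 had a log2 fold change above 0. Of the 11420 genes tested, 5504 were above 0 and 5916 under 0. BDNF, the neurotrophin, was the called gene among 17 activity-regulated genes, at 9.79, 10.6, 10.2 and 11.1 CPM in the controls and 14.5, 20.7, 15.9 and 20.0 in the sGC animals (log2 fold change 0.77 ± 0.12 (SE), adjusted p = 0.0243). The upper-layer, postsynaptic scaffold, and thalamic and septal lists (13, 15 and 5 genes tested) held no call in the edgeR test on the F3 animals, with 6, 4 and 1 at an unadjusted p under 0.05, 3, 0 and 1 called by the likelihood ratio test and 2, 1 and 1 by DESeq2. GRIA1, an AMPA receptor subunit, fell among 18 glutamate receptor genes (-0.37, adjusted p = 0.0279). With controls 2 and 4 summed, BDNF, LDHA and GRIA1 did not pass (adjusted p = 0.0802, 0.133 and 0.0977).

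Among the largest changes across all genes, APOB, the apolipoprotein B gene, rose from at most 0.614 CPM in a control to at least 1.11 in an sGC animal (log2 fold change 2.35 ± 0.44 (SE), adjusted p = 0.0377). MYL1, a myosin light chain of fast muscle, was at 3.05, 1.40, 1.36 and 1.72 CPM in the controls and 7.26, 8.65, 7.90 and 6.51 in the sGC animals (log2 fold change 1.99 ± 0.24 (SE), adjusted p = 0.00918), and passed without any 1 animal. In the fit over the 3 female generations MYL1 did not pass (adjusted p = 0.0787). CBLN2, a synaptic organiser of the cerebellin family, was at 37.8, 15.2, 17.8 and 17.9 CPM against 53.9, 60.0, 75.1 and 53.3, with control 1 set apart from the other controls (1.44, adjusted p = 0.0367). KERA, MKX and PAPPA2 had log2 fold changes of 1.77, 1.46 and 1.43, at low levels. PLPPR1, a lipid phosphatase-related protein of growing axons, fell and passed without any 1 animal, at 23.7, 31.9, 34.0 and 28.3 CPM in the controls and 16.4, 16.2, 15.4 and 15.8 in the sGC animals (log2 fold change -0.88 ± 0.11 (SE), adjusted p = 0.00918). NPSR1, the neuropeptide S receptor, was at 3.11, 5.72, 6.14 and 4.96 CPM in the controls and 2.17, 1.43, 1.04 and 1.32 in the sGC animals (-1.72, adjusted p = 0.0240). CNTN5, a contactin, and Oprm1, the mu opioid receptor, fell by 1.71 and 0.97 on the log2 scale (adjusted p = 0.0429 and 0.0351). Oprm1 was the 1 call among 14 neuropeptide and opioid genes, where 1.34% of all genes were called. With controls 2 and 4 summed, MYL1 and PLPPR1 passed (adjusted p = 0.0330 for both). APOB, CBLN2, KERA, MKX, PAPPA2, NPSR1, CNTN5 and Oprm1 did not pass there (lowest adjusted p = 0.0792, for NPSR1). Each of these passed in only 1 to 3 of the 8 fits that left out 1 animal.

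**Figure D4:**
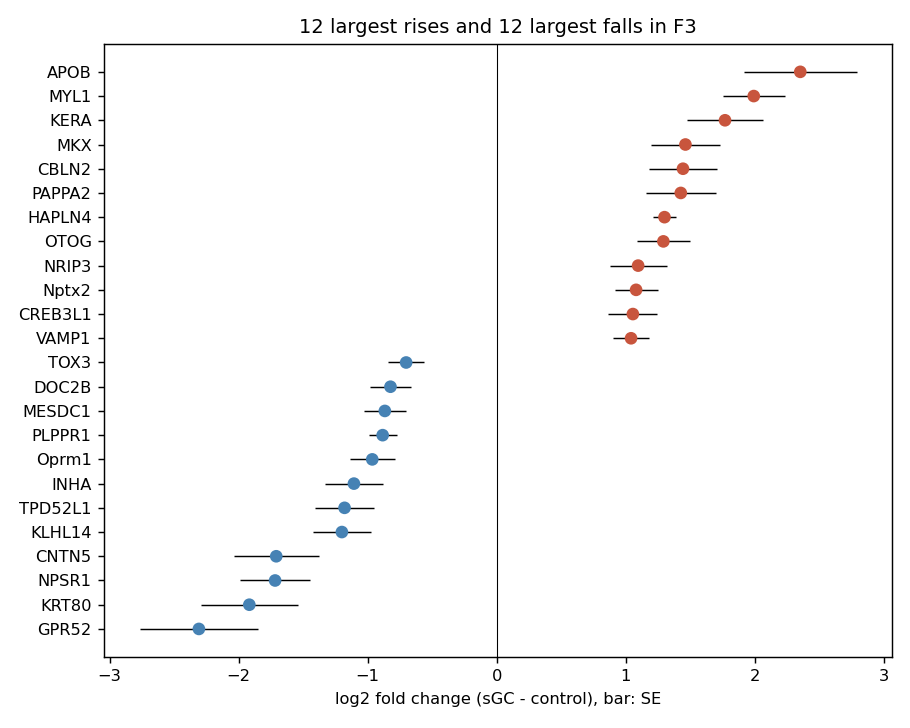
Log2 fold change with its standard error for the 12 largest rises and the 12 largest falls among the genes called in F3. The rises run from VAMP1 at 1.04 to APOB at 2.35, and the falls from TOX3 at -0.70 to GPR52 at -2.31.

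The 10 genes that the study picked as changed in each of its groups, the 3 female generations and the F1 males, were chosen partly on these samples, so their direction in F3 is not independent evidence. KRT80 and GPR52 were called, both lower (-1.92, adjusted p = 0.0442, and -2.31, adjusted p = 0.0466). GPR52, an orphan receptor of striatal neurons, was at 2.48, 12.2, 10.4 and 6.74 CPM in the controls and 1.46, 2.23, 1.32 and 1.24 in the sGC animals. CALB1, the calbindin gene, was at 24.9 CPM in control 1, 97.5 in control 3, 55.9 in control 4 and about 100 in control 2, and at 18.9, 25.7, 22.2 and 20.5 in the sGC animals. For both genes control 1 was the lowest control, and for CALB1 it lay inside the sGC range (-1.67, adjusted p = 0.0642). All 10 genes were called by the likelihood ratio test and by DESeq2, 5 in the fit over the 3 female generations and none with controls 2 and 4 summed.

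The same contrast in the F1 and F2 females, each with its own controls, was set beside F3 for the called members. HAPLN4 had a log2 fold change of 0.73 ± 0.46 in F1 and 0.71 ± 0.40 in F2, against 1.30 ± 0.09 in F3. PVALB stood at 0.82 ± 0.35 and 0.58 ± 0.32, and NEFH at 0.58 ± 0.28 and 0.59 ± 0.35. The standard errors in F1 and F2 were several times those in F3 for these 3 genes. None of the 3 passed in F1 or F2 alone, and no difference between generations passed for them (lowest unadjusted p = 0.248, for HAPLN4 between F3 and F2). Nptx2 was called in F1 (1.00 ± 0.25, adjusted p = 0.0306) and stood at 0.29 ± 0.16 in F2. KCNC2 was called in F1 (0.77 ± 0.18, adjusted p = 0.0250) and stood at -0.01 ± 0.07 in F2, and its F3 minus F2 difference did not pass (adjusted p = 0.0769). In the tests of the difference itself, 11 of 11212 genes passed between F3 and F1 (0.0981%) and 2 of 11140 between F3 and F2 (0.0180%). Among the latter was STX1A, with -0.19 ± 0.06 in F2 and 0.56 in F3 (difference 0.75 ± 0.11, adjusted p = 0.0160), and the other was PKP1, a plakophilin. With 1 F3 animal left out the counts ran from 1 to 9 and from 0 to 44, the 44 without control 1. No member of the 4 lists passed in either test.

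**Figure D5:**
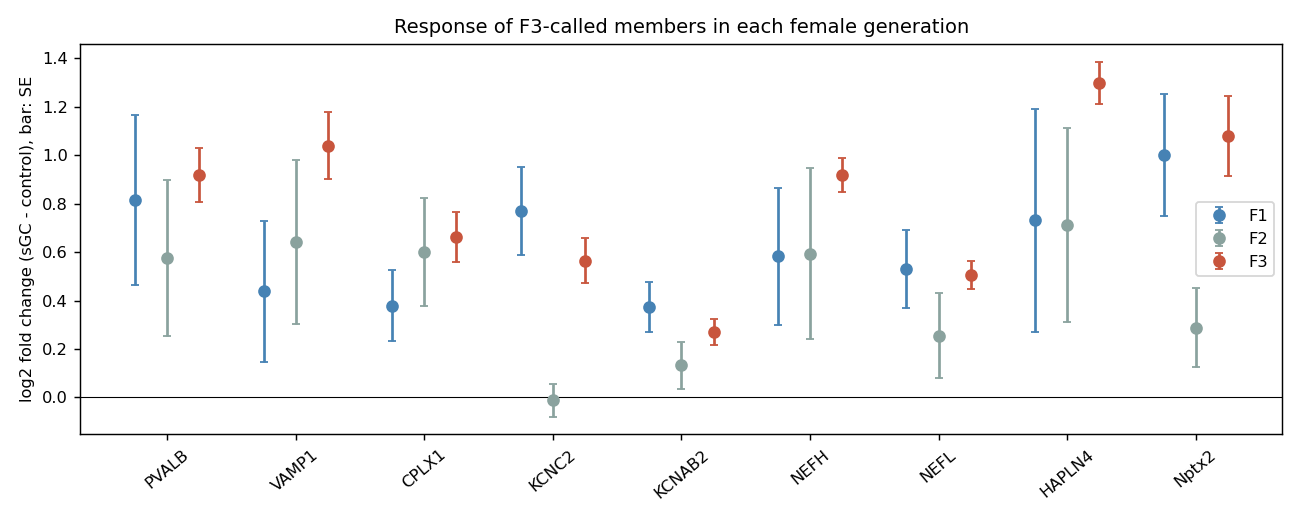
Log2 fold change (sGC minus control) with its standard error in F1, F2 and F3 females for 9 members called in F3. The F3 bars are the shortest for HAPLN4, NEFH and PVALB, and the F1 and F2 points lie above 0 for all genes but KCNC2 in F2.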

How the data were processed

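RNA was sequenced from PFC punches of 8 F3 females, 4 sGC and 4 control. The authors deposited raw read counts per gene; the submitters' processing notes name TopHat2 and edgeR, and the counter, genome build and gene filter are not given in the sources used here. The deposited columns of fold changes, likelihood ratios and p-values hold the authors' own comparison and were not used. Genes passing edgeR's filter (minimum count 10, minimum total 15) were scaled by TMM and tested with edgeR 4.0.16 (R 4.3.3) quasi-likelihood, Benjamini-Hochberg adjusted over all genes. Alternatives were the likelihood ratio test, which the study's methods used, DESeq2 1.42.0, other scalings and filters, a replicate block, a joint fit of the female generations, and leaving out each animal. Members and 34 gene lists were chosen with earlier results of these data known. Named genes were all members of the 4 lists and the matrix list by lowest p, up to 4 per other list, the 12 largest rises and falls, and the tissue markers; SNAP25, the fifth of its list, the striatal receptors DRD1, DRD2 and ADORA2A, and PKP1, were named after their values were seen. Same-numbered animals were not paired. The male table was not used here. A few genes counted in the lists are not reported here by name. No sequences or coordinates are given.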

Additional observations from a re-analysis of the deposited data

Results flagged for a closer look

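In 11 of 150 groups of 4 animals checked, gene by gene, 1 animal lay far from the other 3, and since chance alone marks about 1 in 20 groups, this is near the number chance gives. Control 1 was the animal apart for CACNA1C (63.8 CPM against 78.6 to 81.1), CBLN2 (37.8 against 15.2 to 17.9), KCNA2 (229 against 269 to 276) and LHX6 (25.6 against 21.4 to 22.0). Control 2 was low for RIMS1 (304 CPM against 322 to 323) and control 3 high for DRD1 (96.8 against 52.8 to 59.8). Among the sGC animals, animal 1 was high for DLX5 (5.09 CPM against 2.85 to 3.19) and GRIA1 (131 against 114 to 117). Animal 3 was low for SLC32A1 (42.6 CPM against 66.7 to 68.3), and animal 4 was low for NPTX1 (698 against 793 to 797) and STX1A (287 against 357 to 366).

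The response of 2 named genes differed between F3 and F2 in the test of the difference. The F3 minus F2 difference in log2 fold change was 0.75 for STX1A and 1.20 for PKP1, each with an adjusted p of 0.0160 in edgeR. Neither passed with F3 controls 2 and 4 summed, where no gene did.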

How the results depend on the processing

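The 153 calls in F3 became 616 with the likelihood ratio test, 632 with DESeq2, 67 with a replicate block and 22 with controls 2 and 4 summed (an alternative chosen after seeing the data), and ran from 20 to 598 when 1 animal was left out. Fast-spiking identity genes called went from 1 to 2 with the likelihood ratio test, which added TAC1 as lower, and to 0 in the fit of 3 female generations. Fast-firing genes went from 7 to 3 with the replicate block, 2 in the fit of 3 generations, 1 with the controls summed, and 0 to 8 without 1 animal. Neurofilament genes went from 2 to 4 with the likelihood ratio test and with DESeq2, and to 0 in the fit of 3 generations. Perineuronal net genes went from 2 to 1 in the fit of 3 generations and with the controls summed, and 1 to 3 without 1 animal. Differences between F3 and F1 went from 11 to 114 (likelihood ratio test), 201 (DESeq2), 0 (replicate block) and 1 (controls summed), and 1 to 9 without 1 animal. Those between F3 and F2 went from 2 to 93, 126, 9 and 0 in the same order, to 4 with RLE scaling, and 0 to 44 without 1 animal. Without control 3 the log2 fold changes of DRD2 and SCN4B, neither called, changed sign, and without 1 animal they ran from -0.80 to 0.84 and from -0.54 to 0.34. The cause was not tested. Same-numbered animals deviated with correlations from -0.085 to 0.121, so the numbers were not treated as pairs. With 4 animals a group, the number of animals limits the precision.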
